A study of Saccharomyces cerevisiae with 9 samples.

Results

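Budding yeast makes glycerol from a glycolytic intermediate, releases or takes it up through the plasma membrane, and can burn it again in the mitochondrion. The genes followed here are those of this route and HOG1, 10 in all of the 5667 open reading frames measured: GPD1 (YDL022W), GPD2 (YOL059W), GPP1 (YIL053W), GPP2 (YER062C), GUT1 (YHL032C), GUT2 (YIL155C), STL1 (YDR536W), FPS1 (YLL043W), DAK1 (YML070W) and HOG1 (YLR113W). They were chosen by name, and each was represented by a single probe set. The cells were of the BY4741 background, a haploid laboratory strain of mating type a, grown in YPD, a rich medium, for 5 days from inoculation to harvest. They fell into 3 groups: 2% glucose without restriction (NR), 0.5% glucose, a caloric restriction (CR), and 2% glucose with 100 nM rapamycin, an inhibitor of the TOR kinase (RM). Each group had 3 arrays, labelled as biological replicates. Nothing says that these came from separate cultures, so the p-values measure the spread between these 9 arrays.

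Glycerol synthesis starts from dihydroxyacetone phosphate, which the isoenzymes Gpd1 and Gpd2 reduce to glycerol 3-phosphate with NADH, and which Gpp1 and Gpp2 then free of its phosphate. In yeast the route serves to build an osmolyte and to reoxidise surplus cytosolic NADH. Hog1 is the MAP kinase of the hyperosmotic response, which activates transcription of GPD1, GPP2 and STL1 in osmotically stressed cells. For use as a carbon source, glycerol enters through the proton symporter Stl1, is phosphorylated by the kinase Gut1 and is oxidised by the mitochondrial dehydrogenase Gut2. Fps1 is the channel through which glycerol leaves the cell, and Dak1 phosphorylates dihydroxyacetone.

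All values are log2 signals as deposited, 1 per array. A gene passed the test at a limma p-value under 0.05 after Benjamini-Hochberg adjustment over the 5667 genes. It is called changed where it also differed by at least 2-fold. Signals of different genes are not comparable as transcript levels, because brightness also depends on the probes, and in whole cultures fewer expressing cells and less RNA per cell cannot be told apart.

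The arrays of the groups differed in how closely they matched each other. Pearson's r over all genes was 0.997 to 0.998 between CR arrays, 0.980 to 0.995 between RM arrays and 0.928 to 0.977 between NR arrays. NR replicate 3 stood apart: 9.99% of genes lay at least 1 log2 unit from the mean of the other NR arrays, against 5.17% for NR replicate 1 and 2.19% for NR replicate 2. Of the 10 genes, 7 had their most distant NR value in replicate 3, a count that was not made over all genes. Results are therefore also given without NR replicate 3 where it matters. The genes deleted in BY4741 checked the strain: LEU2, MET15 and URA3 read between 0.71 and 2.01 on every array, while HIS3, of which part remains in this strain, read 5.38 to 6.83. The 5 mating type a genes examined had group means of 4.67, for AGA2 in CR, to 9.57, for MFA1 in RM. Of these 5 genes, 3 were called lower in CR than in NR, beside 19.9% of all genes. The 4 alpha genes had group means of 2.42, for MFALPHA1 in CR, to 7.99, for SAG1 in RM. In CR over NR, STE3 was called higher and MFALPHA1 lower, beside 17.9% and 19.9% of all genes. In RM over NR, SAG1 was called higher, beside 3.99% of all genes. The alpha-factor gene MFALPHA1 read 3.50 in NR replicates 1 and 2 and 6.62 in NR replicate 3.

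**Figure D1:**
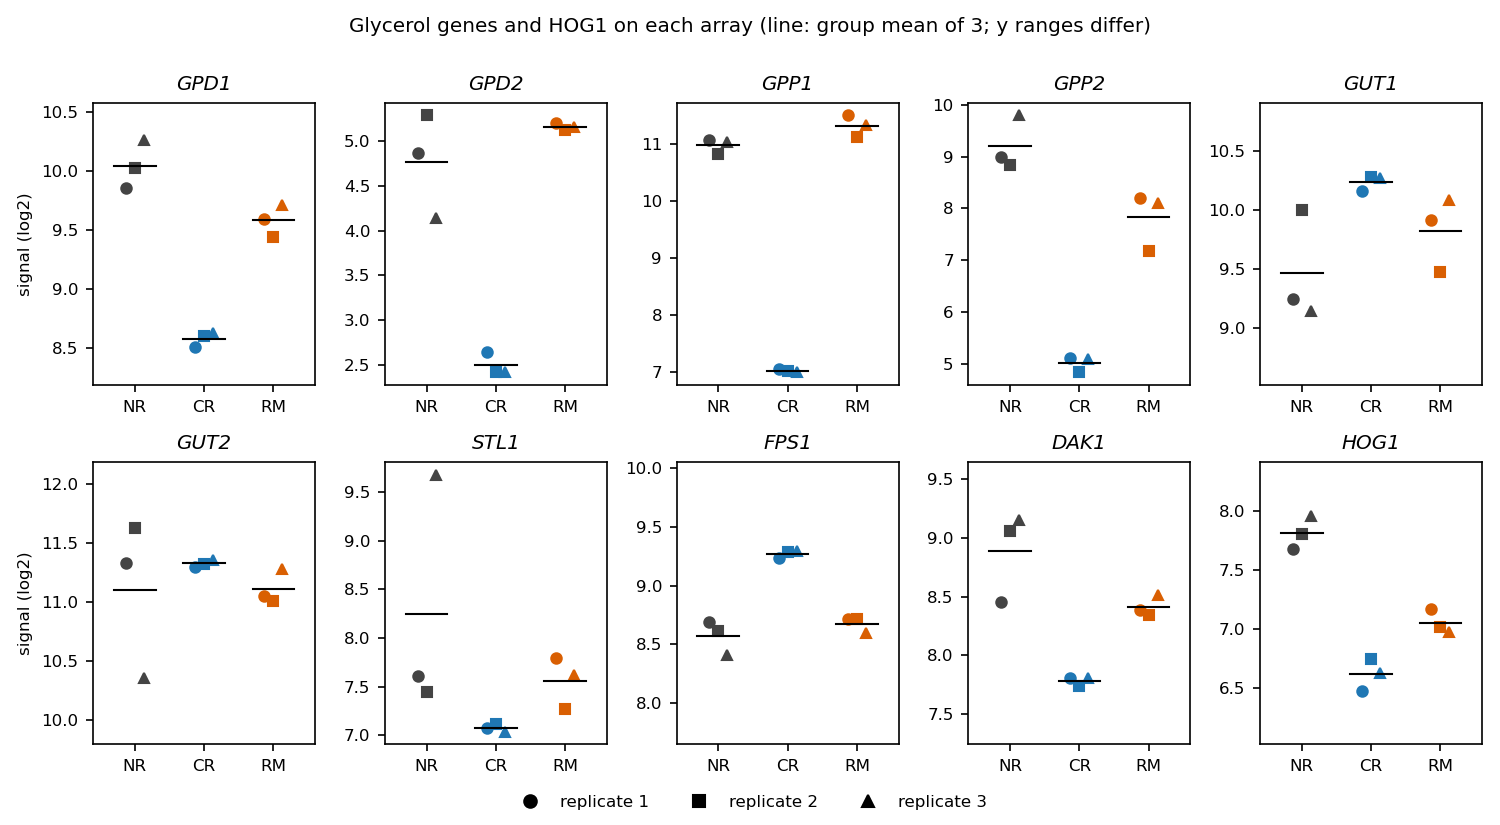
Log2 signal (y axis; ranges differ between panels) of the 10 genes on each of the 9 arrays, by group (x axis); the marker shape gives the replicate and the line the mean of 3 arrays. The CR arrays lie below all others for the 4 synthesis genes, DAK1, HOG1 and STL1, and above all others for FPS1 and GUT1. STL1 is high at 9.68 on NR replicate 3 alone.

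The first comparison asks what differs with 0.5% in place of 2% glucose. All 4 genes of glycerol synthesis fell under CR, the phosphatase genes most. HOG1 and DAK1 fell too, by about the size of the 2-fold limit, while FPS1 and GUT1 rose less than 2-fold. In all, 6 of the 10 genes were called lower and 0 higher. Over all genes, 19.9% were called lower and 17.9% higher. By the adjusted p-value alone 6 passed as lower and 2 as higher, beside 33.6% and 35.3% of all genes. The median log2 fold change of the 10 genes was -1.18, against 0.02 over all genes.

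GPP1, the more brightly read of the phosphatase probe sets, had signals of 11.07, 10.81 and 11.03 in NR and of 7.05, 7.001 and 6.99 in CR. The groups lay far apart, with a gap of 3.76 log2 units between the lowest NR and the highest CR array. GPP1 was thus 15.6-fold lower under CR (log2 fold change -3.96 ± 0.13 SE, adjusted p = 1.15e-07), the 23rd lowest of the 5667 log2 fold changes. GPP2 read 8.99, 8.84 and 9.80 in NR and 5.10, 4.83 and 5.08 in CR. It was 18.4-fold lower (log2 fold change -4.21 ± 0.31 SE, adjusted p = 4.67e-06), the 16th lowest. Under NR the GPP2 probe set was brighter than that of 87.5% of genes, and under CR than that of 17.4%. The change of GPP1 minus the change of GPP2, taken within arrays, was 0.25 on the log2 scale, and these differences overlapped between the groups (exact two-sided permutation p = 0.6). With NR replicate 3 left out it was -0.02. Their changes under CR could therefore not be told apart in size with 3 arrays a group, for which the smallest possible p is 0.1.

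The dehydrogenase genes that precede them fell less. GPD1, the isoenzyme tied to osmotic stress, read 9.86, 10.02 and 10.26 in NR and 8.51, 8.60 and 8.63 in CR, without overlap. The fold change was 2.77-fold lower (adjusted p = 1.51e-05), with a 95% interval of -1.77 to -1.16 on the log2 scale. GPD2, the isoenzyme tied to redox balance under oxygen limitation, was dim throughout. Its signals were 4.87, 5.29 and 4.14 in NR and 2.65, 2.42 and 2.42 in CR. That is 4.84-fold lower (adjusted p = 3.78e-05) with an interval of -2.83 to -1.72. Under CR only 3.05% of genes had a dimmer probe set than GPD2. Its CR signals lay above, though near, the highest reading of the deleted genes LEU2, MET15 and URA3, 2.01. No detection calls were used here, so the fold of GPD2 may be limited by the low end of the signal range, which was not tested. GPD2 fell by 0.80 more than GPD1 on the log2 scale, with overlapping differences (exact permutation p = 0.2).

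HOG1 itself read 7.68, 7.80 and 7.96 in NR and 6.47, 6.74 and 6.63 in CR. Every CR array lay below every NR array, by at least 0.94. The kinase gene was 2.30-fold lower under CR (log2 fold change -1.20 ± 0.13 SE, adjusted p = 3.35e-05). DAK1 read 8.45, 9.06 and 9.15 in NR and 7.81, 7.74 and 7.81 in CR, a difference of 2.14-fold lower (adjusted p = 0.000429). When NR replicate 3 was left out, the log2 fold change of DAK1 was -0.97, just short of 2-fold. Then 5 of the 10 genes were called instead of 6, beside 1937 instead of 2139 of all 5667 genes.

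The genes of glycerol use and transport behaved differently. FPS1, the efflux channel, read 8.69, 8.62 and 8.41 in NR and 9.23, 9.29 and 9.29 in CR. It rose 1.62-fold (adjusted p = 0.000478), with no overlap. GUT1, the glycerol kinase gene, read 9.25, 9.998 and 9.14 in NR and 10.16, 10.28 and 10.27 in CR. It rose 1.71-fold in the limma fit (adjusted p = 0.0151), but the authors' deposited table gives it a p-value of 0.0617. NR replicate 2 lay closest to the CR arrays: without NR replicate 2 the log2 fold change was 1.04 and the gene was called, and without NR replicate 3 it was 0.62.

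GUT2, the mitochondrial glycerol 3-phosphate dehydrogenase gene, read 11.33, 11.63 and 10.36 in NR and 11.30, 11.32 and 11.36 in CR. The groups overlapped, and the log2 fold change of 0.22 did not pass (adjusted p = 0.489); it was -0.15 without NR replicate 3. STL1, the glycerol symporter, read 7.61, 7.45 and 9.68 in NR and 7.07, 7.12 and 7.04 in CR. NR replicate 3 was 4.45-fold above the mean of the other NR arrays, and the CR arrays lay below all 3. The log2 fold change of -1.17 did not pass (adjusted p = 0.0581). Leaving out NR replicate 3 moved it to -0.45, and with the smaller spread of the remaining arrays it passed (adjusted p = 0.0260). Leaving out NR replicate 1 or 2 moved it to -1.49 or -1.57, and STL1 was then called. The change of STL1 was below that of FPS1 by 1.87 on the log2 scale, without overlap, or by 1.07 without NR replicate 3. For the difference of 1.87 the exact permutation p was 0.1, the smallest possible (0.171 adjusted over 12 such tests). The change of GUT1 was above that of GUT2 by 0.55, also without overlap and with the same p.

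Non-overlap was common in this comparison. The CR and NR arrays did not overlap for 9 of the 10 genes, all but GUT2, beside 75.5% of all genes.

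**Figure D2:**
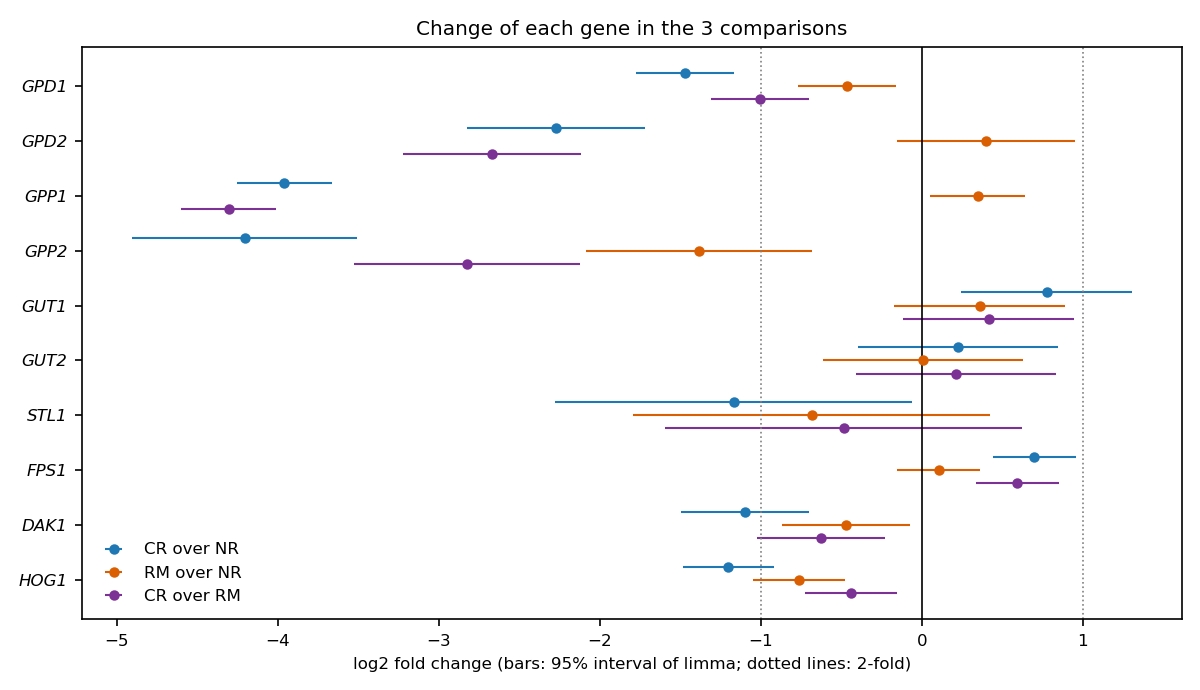
Log2 fold change (x axis) of each of the 10 genes in the 3 comparisons, with the 95% interval of the limma fit over 9 arrays; dotted lines mark 2-fold. Both comparisons of CR lie far below 0 for GPD2, GPP1 and GPP2, whereas RM over NR is below -1 for GPP2 alone.

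The next comparison asks what differs with rapamycin added. GPP2 fell, as did GPD1 and HOG1 by less than 2-fold, whereas GPP1 and GPD2 did not pass the test. Of the 10 genes, 1 was called lower and 0 higher. Over all genes, 4.66% were called lower and 3.99% higher. By the adjusted p-value alone 3 passed as lower and 0 as higher, beside 19.4% and 17.6% of all genes. The median log2 fold change of the 10 genes was -0.23, against -0.05 over all genes.

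GPP2 read 8.21, 7.18 and 8.10 in RM, each below the lowest NR value of 8.84. It was 2.61-fold lower than in NR (log2 fold change -1.38 ± 0.31 SE, adjusted p = 0.00992), or -1.09 on the log2 scale without NR replicate 3 (adjusted p = 0.0157). With arrays weighted by their spread it was -0.76, and GPP2 was then not called (adjusted p = 0.00772). GPP1 read 11.50, 11.12 and 11.33 in RM, each above the NR values though by as little as 0.05. Its difference of 1.27-fold higher did not pass (adjusted p = 0.0640), while its p-value in the authors' deposited table is 0.0471. The GPP1 and GPP2 changes went apart by 1.73 on the log2 scale, a factor of 3.31, with no overlap of the within-array differences (exact permutation p = 0.1, the smallest possible; 0.171 adjusted over 12 such tests). Without any single array this difference stayed between 1.46 and 1.89.

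The log2 fold changes of the dehydrogenase genes also had opposite signs under rapamycin. GPD1 read 9.59, 9.45 and 9.72 in RM, each below the NR arrays, and fell 1.38-fold (adjusted p = 0.0274). That pass was lost in 6 of 17 alternatives, with adjusted p-values up to 0.0979. GPD2 read 5.21, 5.12 and 5.16, within the NR range of 4.14 to 5.29. Its log2 fold change of 0.40 did not pass (adjusted p = 0.225), and without NR replicate 3 it was 0.09. Without NR replicate 2 it was 0.66 and passed (adjusted p = 0.0453). The change of GPD1 lay 0.86 below that of GPD2, without overlap (exact permutation p = 0.1, the smallest possible, or 0.171 adjusted). Without NR replicate 3 it lay 0.44 below.

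HOG1 read 7.17, 7.01 and 6.98 in RM, all below the NR arrays, and fell 1.70-fold (log2 fold change -0.76 ± 0.13 SE, adjusted p = 0.00286), or by 0.69 on the log2 scale without NR replicate 3. DAK1 read 8.39, 8.34 and 8.51 in RM and overlapped NR, with a log2 fold change of -0.47 that did not pass (adjusted p = 0.0616). STL1 read 7.80, 7.27 and 7.62, FPS1 8.72, 8.72 and 8.59, GUT1 9.91, 9.47 and 10.08, and GUT2 11.05, 11.01 and 11.28. None of these 4 passed, and their RM arrays overlapped NR. Their log2 fold changes were -0.68 for STL1, 0.10 for FPS1, 0.36 for GUT1 and 0.01 for GUT2, with adjusted p-values of 0.252 to 0.984. Those of STL1 and GUT2 changed sign without NR replicate 3, to 0.03 and -0.37, and that of GUT1 was 0.63 and passed without NR replicate 2 (adjusted p = 0.0364). RM and NR did not overlap for 4 of the 10 genes, namely GPD1, GPP1, GPP2 and HOG1, beside 43.5% of all genes.

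The direct comparison sets 0.5% glucose against rapamycin. It comes from the same fit, so the NR arrays enter the estimate of the spread but not the fold changes. The 4 synthesis genes were called lower under CR and 0 genes higher. Over all genes 13.2% were called lower and 12.7% higher. By the adjusted p-value alone 6 of the 10 passed as lower and 1 as higher, beside 26.4% and 29.7% of all genes. GPP1 was 19.8-fold lower under CR than RM (log2 fold change -4.31 ± 0.13 SE, adjusted p = 1.79e-07), the 7th lowest of all genes. GPP2 was 7.08-fold lower (adjusted p = 6.52e-05), GPD2 6.37-fold (adjusted p = 2.38e-05) and GPD1 2.01-fold (adjusted p = 0.000216). GPD1 stood at the 2-fold limit, and its log2 fold change was -0.97 without CR replicate 1 and -0.94 without RM replicate 3.

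HOG1 and DAK1 passed with smaller differences, 1.35-fold lower (adjusted p = 0.0149) and 1.54-fold lower (adjusted p = 0.0131). The HOG1 difference no longer passed without CR replicate 1 (adjusted p = 0.0742) or RM replicate 1 (adjusted p = 0.0637). FPS1 was 1.51-fold higher under CR than RM (adjusted p = 0.00172). GUT1, GUT2 and STL1 did not pass, with adjusted p-values of 0.160 to 0.534, although the CR and RM arrays of all 10 genes were free of overlap, as were those of 75.9% of all genes. When CR and RM arrays alone were fitted, GUT1 and STL1 passed (adjusted p = 0.0435 and 0.0140) and GUT2 did not (adjusted p = 0.0706). STL1 also passed in the fit without NR replicate 3 (adjusted p = 0.0123). Within arrays, GPP1 fell by 1.48 more than GPP2 on the log2 scale and GPD2 by 1.66 more than GPD1, both without overlap. Each had an exact permutation p of 0.1, the smallest possible, or 0.171 adjusted. GPD2 was near the low end of the signal range in CR, which may limit its fold and its difference from GPD1.

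Ordered by mean signal, RM lay between NR and CR for GPD1, GPP2, STL1, DAK1, HOG1, FPS1, GUT1 and GUT2, and above both for GPD2 and GPP1. The NR and RM means of GUT2 differed by only 0.008. Without NR replicate 3, whose removal gave NR means of 11.48 for GUT2 and 7.53 for STL1, RM lay below both groups for GUT2 and above both for STL1. For HOG1 the means ± SD were 7.81 ± 0.14 in NR, 7.05 ± 0.10 in RM and 6.61 ± 0.13 in CR (n = 3 each), and the arrays of the 3 groups did not overlap. For GPD1 they were 10.05 ± 0.20, 9.58 ± 0.14 and 8.58 ± 0.064, and for GPP2 9.21 ± 0.51, 7.83 ± 0.57 and 5.01 ± 0.15, again without overlap. The 3 groups of GPP1 did not overlap either, with RM highest. Over all genes, non-overlap was counted by pair of groups only. It held for 75.5% of genes for CR and NR, 43.5% for RM and NR and 75.9% for CR and RM. For DAK1, GPD2, STL1, FPS1, GUT1 and GUT2 the neighbours NR and RM overlapped. The spread itself differed: the SD was smaller in CR than in NR for 10 of the 10 genes, as for 93.9% of all genes, and the median SD over the 10 genes was 0.42 in NR, 0.14 in RM and 0.052 in CR.

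The genes with the nearest profiles were found by the root mean square difference over the 9 arrays, after each gene was centred on its own NR mean. Nearest to HOG1 were MRPL11, CDC25 and HSP10, at 0.10, 0.12 and 0.12 log2 units. GPD1 lay nearest to HSP26, AFR1 and DYS1, each at about 0.10. For GPP1 the nearest were ICY1 at 0.35, CYT1 at 0.44 and HXT3 at 0.47, and for GPP2 RPL22A at 0.31, TYE7 at 0.32 and STP4 at 0.33. GPD2 lay nearest to YHR210C, UPF3 and FLO11, at 0.29 to 0.31. FPS1 lay nearest to ISA1 at 0.047, GLD1 at 0.063 and MSI1 at 0.067, and DAK1 to MDL2 at 0.044, GVP36 at 0.089 and TRE1 at 0.095. STL1 lay nearest to MAE1 at 0.18, ANS1 at 0.22 and URK1 at 0.24, GUT1 to YCR099C, GET2 and PDR10 at 0.14 to 0.15, and GUT2 to YDR246W-A at 0.11, HFD1 at 0.16 and BPT1 at 0.17. The median over all genes was 0.63 to 2.61 for the same measure, depending on the gene. Among the 10 genes themselves, the closest profiles were those of DAK1 and HOG1, GPD1 and DAK1, and GPD1 and HOG1, at 0.24 to 0.25.

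The wider pathway was followed in 6 lists of 47 genes, of which 46 were measured. Under CR, 15 of the 46 were called, 6 higher and 9 lower, beside 37.7% of all genes. Under RM 4 were called, 2 higher and 2 lower, beside 8.65% of all genes. CR against RM had 12 called, 4 higher and 8 lower, beside 25.9% of all genes.

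Above Hog1, 14 genes encode the osmosensors, the kinases and other proteins of the pathway that lead to it. Under CR, 2 of the 14 were called higher and 0 lower, beside 17.9% and 19.9% of all genes. By the adjusted p-value 9 rose and 3 fell, beside 35.3% and 33.6% of all genes. Those that fell were SHO1, STE50 and STE20, each by less than 2-fold. SSK2, a kinase of Pbs2 in the Sln1 branch, was 3.46-fold higher than in NR (adjusted p = 1.72e-05). SSK22, the other such kinase of that branch, did not pass (log2 fold change -0.34, adjusted p = 0.439). STE11, the counterpart of SSK2 in the Sho1 branch, was 2.28-fold higher (adjusted p = 0.000179). PBS2, the kinase of Hog1, rose 1.67-fold (adjusted p = 0.00037). The list's median log2 fold change was 0.70, while HOG1 itself was at -1.20. Under RM 0 of the 14 were called, beside 8.65% of all genes. By the adjusted p-value 2 rose and 2 fell, beside 17.6% and 19.4% of all genes. SLN1, the osmosensing histidine kinase, rose most, 1.87-fold (adjusted p = 0.000796), and STE50 fell most, 1.52-fold (adjusted p = 0.0134). PBS2, SLN1, SSK22, SHO1, STE50 and STE20 are named after their values were seen, PBS2, SLN1 and SSK22 for their place in the pathway. Against RM, SSK2 was 2.92-fold and STE11 2.05-fold higher under CR, the latter 0.95 on the log2 scale without RM replicate 1.

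Of 5 phosphatases that act on Hog1, 1 was called under CR: PTC1 was 2.28-fold higher (adjusted p = 0.00254), or 0.85 on the log2 scale without NR replicate 3, short of 2-fold. Over all genes 17.9% were called higher. By the adjusted p-value 4 of the 5 rose, beside 35.3% of all genes. Under RM 0 of the 5 passed, with log2 fold changes of 0.08 to 0.27. Over all genes 17.6% passed as higher and 19.4% as lower.

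Among 6 transcription factors and a kinase downstream of Hog1, the related stress factors MSN2 and MSN4 went opposite ways under CR. MSN4 was 17.9-fold lower (log2 fold change -4.16, adjusted p = 1.45e-06). MSN2 was 3.09-fold higher (adjusted p = 4.07e-06) and MSN1 7.24-fold higher (adjusted p = 5.22e-06). HOT1, the factor through which Hog1 acts on GPD1 and STL1, rose 1.43-fold (adjusted p = 0.00461). SKO1, another of the factors, fell 1.27-fold (adjusted p = 0.0236), and both are named after their values were seen. By the adjusted p-value 4 of the list rose and 2 fell under CR, beside 35.3% and 33.6% of all genes. Under RM 0 of the 7 were called, beside 8.65% of all genes. Against RM, MSN4 was 12.2-fold lower under CR, MSN1 5.45-fold higher and MSN2 2.23-fold higher.

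The remaining lists were mixed. Of 8 other glycerol enzymes and Fps1 regulators, only GCY1, a glycerol dehydrogenase gene, was called. Over all genes 37.7% were called for CR over NR and 25.9% for CR over RM. GCY1 was 5.28-fold lower in CR than in NR (adjusted p = 1.25e-06) and 2.88-fold lower in CR than in RM. Of 4 genes that supply dihydroxyacetone phosphate or oxidise cytosolic NADH at the mitochondrion, 3 were called lower and 1 higher under CR. Over all genes 19.9% were called lower and 17.9% higher. Triose phosphate isomerase TPI1 was 13.5-fold lower, the NADH dehydrogenase NDE1 5.40-fold and aldolase FBA1 4.51-fold, and the isoenzyme gene NDE2 was 2.80-fold higher, with adjusted p-values of 1.47e-06 to 0.000628. Under RM, TPI1 was 3.19-fold lower (adjusted p = 0.00343) and NDE1 2.13-fold lower (adjusted p = 0.00416). The NDE1 call ended without NR replicate 3, at a log2 fold change of -0.86, or without RM replicate 2, at -0.96. Against RM, TPI1 was 4.23-fold, FBA1 3.48-fold and NDE1 2.54-fold lower under CR.

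Of 8 measured osmostress-induced genes, 4 were called lower under CR and 0 higher, beside 19.9% and 17.9% of all genes. The catalase gene CTT1 was 3.43-fold lower (adjusted p = 3.98e-05), SIP18 2.42-fold (adjusted p = 8.08e-06), and the aldose reductase gene GRE3 2.16-fold (adjusted p = 0.000234), or -0.93 on the log2 scale without NR replicate 2. The cell wall gene CWP1 was 2.55-fold lower (adjusted p = 0.0372). Without NR replicate 3 the log2 fold change of CWP1 was -0.62, and without any single CR or RM array its adjusted p-value was 0.0526 to 0.0824. Under RM, CTT1 was 2.35-fold higher (adjusted p = 0.00241), or 0.98 on the log2 scale without NR replicate 1. The aldehyde dehydrogenase gene ALD3 was 2.51-fold higher (adjusted p = 0.0139), or 0.86 on the log2 scale without NR replicate 3. In the direct comparison CTT1 was 8.04-fold lower under CR than RM, SIP18 2.70-fold and GRE1 2.01-fold. GRE1 stood at the limit, with log2 fold changes of -0.98 without CR replicate 1 and -0.9995 without CR replicate 2.

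**Figure D3:**
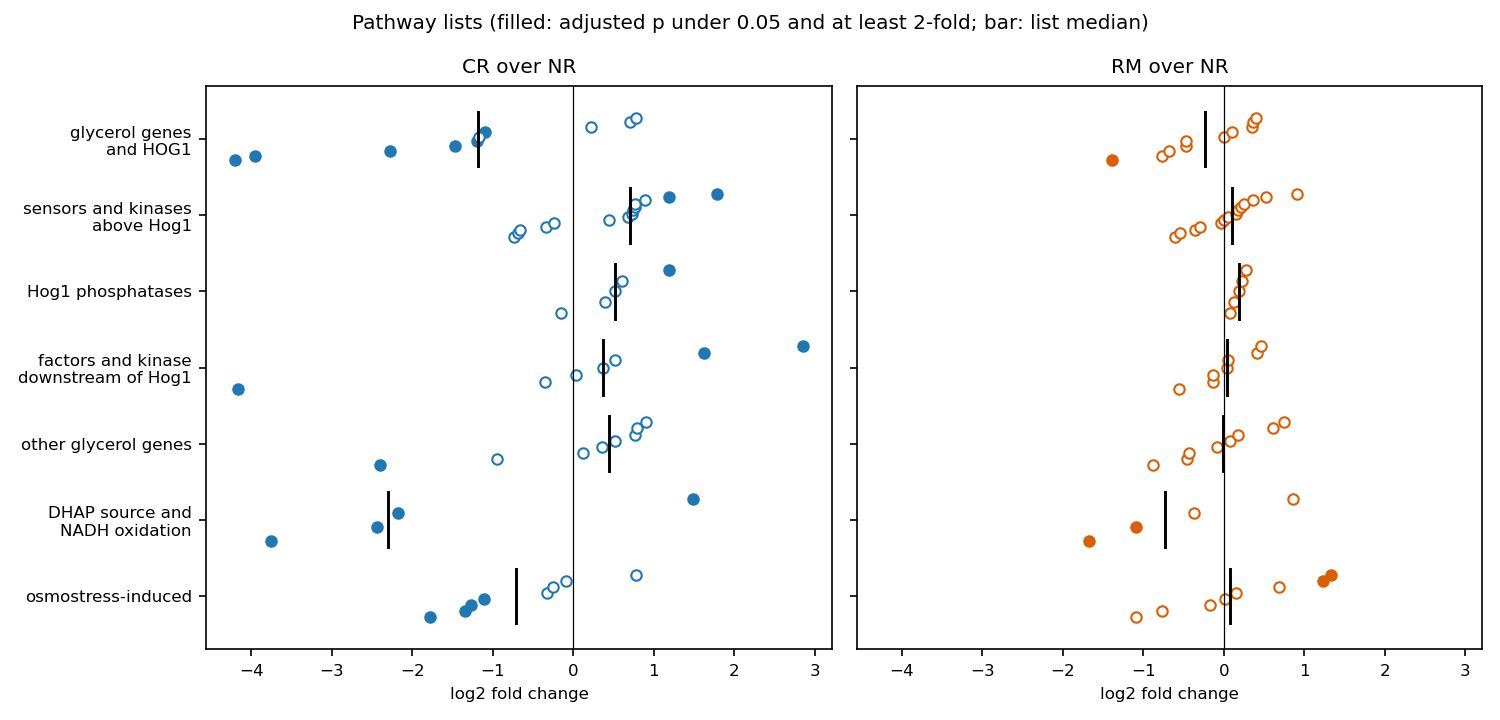
Log2 fold change (x axis) of the 10 genes and of 46 genes in 6 pathway lists (rows; DHAP is dihydroxyacetone phosphate), for CR over NR and RM over NR; filled points are called genes and the bar is the list median. The median of the genes above Hog1 was 0.70 under CR while that of the 10 glycerol genes and HOG1 was -1.18, and the RM medians of these lists were 0.10 and -0.23.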

How the data were processed

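Total RNA of 9 samples was hybridised to Affymetrix GeneChip Yeast 2.0 arrays, per the labels. The deposited value table holds log2 signals for 5716 probe sets. The submitters' processing notes name RMA and Transcriptome Analysis Console 2.0, with no role given. The authors' deposited table adds signed fold changes (a score: a negative value is minus the inverse ratio) and p-values from a test that is not named, per the file headers. Differences of group means in the log2 table equal the log2 of all deposited folds within 1e-08, which settles scale and direction. Column medians were 6.86 to 6.94 on the log2 scale.

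The first listed probe set of each open reading frame gave 5667 genes, with 5646 named in RefSeq R64. No coordinates are printed, because neither the labels nor the file headers name the array's build. All 9 arrays entered 1 fit (limma 3.58.1, R 4.3.3: lmFit and eBayes, 1 coefficient per group), with Benjamini-Hochberg adjustment over 5667 genes. The fit was tested on simulated data. Unequal change within 4 pairs of genes (GPD1 and GPD2, GPP1 and GPP2, GUT1 and GUT2, STL1 and FPS1) was tested by exact two-sided permutation of arrays (SciPy 1.17.1), with Benjamini-Hochberg adjustment over 12 tests. Named pathway genes are the called genes of each list, at most 4 by absolute log2 fold change, and 3 nearest profiles per gene. The genes and lists were chosen with earlier results of these data known. All 10 probe set names lack the suffixes that Affymetrix gives to probe sets shared by several genes. The number of arrays limits the precision. The labels do not say that equal numbers (set 1 to 3) pair the arrays, and the fit did not pair them. Alternatives were the replicate block, fold limits of 1.5 and 3 or none, the deposited values, all probe sets, an intensity trend, centring, a filter on dim genes and leaving out each array. Fits on the arrays of the groups compared alone and array weights were added after the data were seen.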

Additional observations from a re-analysis of the deposited data

How the results depend on the processing

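Across alternatives, 990 values of single genes kept their direction and side of the adjusted p threshold, 19 newly passed, 17 no longer passed and 8 reversed. Many of these values could not reverse, because the alternative altered the p-value and not the fold change. Such alternatives were the replicate block, the intensity trend, the deposited values, all probe sets and the dim filter. Fits on the groups compared alone and leaving out an array of the group not compared were others. With the 2-fold limit counted too, 29 calls were lost and 4 gained. For CR over NR, the 2139 genes called became 3905 with no fold limit, 3284 at 1.5-fold and 991 at 3-fold, and 1937 to 2375 without single arrays. For RM over NR, the 490 called became 2099, 1464 and 89 by fold limit, and 376 to 783 without single arrays, the highest without NR replicate 1. For CR over RM, the 1469 called became 3180, 2613 and 520 by fold limit, and 1374 to 1517 without single arrays. Of the 10 glycerol genes and HOG1, 3 were called for RM over NR and 7 for CR over RM with no limit, 2 for RM over NR at 1.5-fold, and 3 for CR over NR and 0 for RM over NR at 3-fold. Without single arrays the count of the 10 was 5 to 8 for CR over NR, 1 for RM over NR and 3 to 4 for CR over RM. The replicate block gave 2144, 498 and 1475 genes and 7, 1 and 4 of the 10, since STL1 was called for CR over NR (adjusted p = 0.0464). Deviations from the group means correlated between -0.20 and 0.35 within a set, the highest for NR and RM in set 3. Whether arrays of a set share more than a number was not tested. The dim filter left out GPD2.

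Reversals came with GUT2, STL1 and GPD2. Without single arrays GUT2 ranged from -0.15 to 0.48 for CR over NR and from -0.37 to 0.27 for RM over NR, where it was -0.08 without RM replicate 3, and STL1 from -1.08 to 0.034 for RM over NR. The values -0.15, -0.37 and 0.034 were without NR replicate 3. With array weights, GUT2 was at -0.21 (CR over NR) and -0.47 (RM over NR), where it passed as lower (adjusted p = 0.0107). GPD2 was at -0.0094 and STL1 at 0.18 (both RM over NR). GPP1 at 0.61 and DAK1 at -0.61 also passed for RM over NR (adjusted p = 0.000505 and 0.000607). In that comparison 0 of the 10 were called, as GPP2 was at -0.76, beside 564 of all 5667 genes. The array weights ran from 0.084 for NR replicate 3 to 5.22 for CR replicate 3. Differences between the changes of paired genes without single arrays follow, first for CR over NR, next for RM over NR, last for CR over RM. They were 0.53 to 1.22, -1.13 to -0.44 and 1.60 to 1.78 for GPD1 minus GPD2, and -0.018 to 0.41, 1.46 to 1.89 and -1.61 to -1.25 for GPP1 minus GPP2. They were 0.33 to 0.77, 0.13 to 0.57 and 0.078 to 0.28 for GUT1 minus GUT2, and -2.29 to -1.07, -1.21 to 0.011 and -1.25 to -0.98 for STL1 minus FPS1. The reversals to -0.018 and 0.011 were without NR replicate 3, and the cause was not tested.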
